A study of Mus musculus with 12 samples.

Results

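The experiment described here compared 6 pools of mouse oocytes that lacked Mfn1 with 6 pools that kept it, across a change in Mfn2. The Mfn1-null side held 3 Mfn1-/- and 3 Mfn1&2-/- pools, and the Mfn1-intact side held 3 WT and 3 Mfn2-/- pools. Members were chosen by genotype label alone, so all 12 libraries of the series and all 11385 genes of its count table were used. All mice carried the C57BL/6J strain label, were unprimed and were 21 to 23 days old. Every pool held 50 germinal-vesicle oocytes, the stage arrested in meiotic prophase, stripped of their cumulus cells by pipetting. The labels give only the genotype: they name no Cre line, promoter or exon for the loss of either gene, and do not say whether other cells of the mouse carried it. Whether each pool came from its own mice is not stated either. The spread between pools of 1 genotype, which enters every p-value, may therefore be technical in part.

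Mitofusins are large GTPases of the outer mitochondrial membrane. They pair across neighbouring mitochondria and bring their outer membranes together, the step that precedes fusion of the inner membrane by Opa1. Mitofusin 2 also lies at contacts between mitochondria and the endoplasmic reticulum (ER), so the 2 proteins overlap in fusion but differ in other roles. The oocyte is rich in mitochondria and hands its whole stock on to the embryo. The crossed design asks which transcripts change with loss of Mfn1 whether or not Mfn2 is there. It was read in 3 ways: an edgeR quasi-likelihood fit over all 12 libraries with Mfn2 status as a covariate, the comparison where Mfn2 is present (Mfn1-/- minus WT), and the comparison where Mfn2 is lost (Mfn1&2-/- minus Mfn2-/-). The last 2 comparisons share no library. In the covariate fit, the spread behind a p-value or standard error also takes in any difference of the Mfn1 effect between the Mfn2 backgrounds. Throughout, a gene was called when its Benjamini-Hochberg adjusted p was below 0.05, levels are CPM, counts scaled to a common library size with TMM factors, and values after ± on log2 fold changes are standard errors. A called gene was said to hold when its 3 Mfn1-null pools lay on the same side of its 3 Mfn1-intact pools in both Mfn2 backgrounds.

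Libraries held 11575357 to 16024893 counts, and pools of a group correlated at 0.953 to 0.979. A level of 3 counts, used as the detection floor, was equal to 0.188 to 0.253 CPM. The summed level of the 18 oocyte markers in the table ran from 14991 to 20935 CPM. Of 18 granulosa cell markers, 11 were in the table, and their sum ran from 515 to 893 CPM in WT and from 442 to 542 CPM in the other 9 pools. WT replicate 3 was the pool at 893 CPM. None of the 11 was called, beside 0.808% of all genes, so the count for so short a list says little. Their median log2 fold change was -0.947, and it was -0.151 without WT replicate 3. By background, their median was -0.832 where Mfn2 was present and 0.16 where it was lost. Fshr, the receptor for follicle-stimulating hormone, averaged 1.80 CPM in Mfn1-intact and 0.679 CPM in Mfn1-null pools. The 4 endothelial markers in the table summed to 150 to 154 CPM in WT and 132 to 156 in Mfn1-/-, and to 147 to 154 in Mfn2-/- and 166 to 192 in Mfn1&2-/-. No leukocyte marker of the list was in the table, and the only theca marker there was Hsd3b1, at 1.44 to 12.4 CPM in 11 pools and 44.9 CPM in WT replicate 3. The part of these cells in any change below was not tested, beyond the fits without WT replicate 3. In such pooled samples, fewer cells of a type and less RNA per cell cannot be told apart.

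The Mfn1 transcript (gene span chr3:32529465-32579239, GRCm38) followed the labels. It stood at 264, 278 and 297 CPM in WT against 17.8, 18.9 and 17.7 in Mfn1-/-, and at 245, 217 and 228 in Mfn2-/- against 26.4, 19.1 and 14.8 in Mfn1&2-/-. The means were 254.9 CPM with and 19.1 CPM without the gene, a log2 fold change of -3.73 ± 0.13 (adjusted p = 6.41e-11). Reads were counted over the gene as a whole, so the remainder does not say which exons were still transcribed. Mfn2 stood at 64.3 to 87.2 CPM in the 6 pools that kept it and at 9.19 to 13.5 CPM in the 6 that lost it. Its log2 fold change on loss of Mfn1 was -0.13 ± 0.12 (adjusted p = 0.614), so no change of Mfn2 was detected beside the loss of Mfn1.

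With Mfn2 status as a covariate, 92 of 11385 genes were called (0.808%), 41 higher (0.36%) and 51 lower (0.448%) in Mfn1-null pools. At an unadjusted p below 0.05 the share was 16.7%. The changes were moderate: 32 of the 92 lay beyond 2-fold and 31 lay under 1.5-fold. Of the 92, 76 held (82.6%), 34 of them higher and 42 lower, where 342 of all 11385 genes (3%) met the same overlap rule (1.32% higher, 1.69% lower) and 257 (2.26%) lay apart in both backgrounds in opposite directions. The fit itself favours genes that move alike in both backgrounds, so the share that held describes the calls and is no separate support. Among the 92, 86 had an unadjusted p below 0.05 and the same sign in both backgrounds, a count that the fit favours likewise. The backgrounds did not contribute alike. Where Mfn2 was lost, 72 of the 92 (78.3%) were also called, beside 10.2% of all genes. Where Mfn2 was present, 11 of the 92 (12%) were, beside 0.228% of all genes.

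The separate comparisons gave very different numbers of calls. Loss of Mfn1 changed 26 genes (0.228%) where Mfn2 was present, 8 higher (0.0703%) and 18 lower (0.158%). It changed 1163 genes (10.2%) where Mfn2 was lost, 699 higher (6.14%) and 464 lower (4.08%). The gap was smaller by other measures. At an unadjusted p below 0.05 the shares were 12.8% with Mfn2 and 25.7% without it. The median absolute log2 fold change over all genes was 0.193 with Mfn2 and 0.268 without it. The interaction, which tests the difference between both effects, was called for 470 genes (4.13%). Over all genes the signs matched for 49.2%, and the log2 fold changes correlated at a Pearson r of 0.0116 and a Spearman rho of 0.00053, across genes that are not independent replicates. In all, 6 genes were called in both with the same sign, 23.1% of the 26 and 0.516% of the 1163: Mfn1, Mccc1, Plek and Chst11, all lower, and Gli3 and Add3, both higher. Looked up in the other comparison, 11 of the 26 genes called with Mfn2 (42.3%) had the same sign and an unadjusted p below 0.05 without it, where 12.6% of all genes did. The 11 include the deleted gene Mfn1. Because the spread estimates are shared, this is no independent replication. In the other direction it was 98 of the 1163 (8.43%), where 6.6% of all genes did, and 45.8% had the same sign. The 26 became 42, 4 and 13 without WT replicates 1, 2 and 3, became 4, 3 and 51 without Mfn1-/- replicates 1, 2 and 3, and became 16 and 46 without Mfn2-/- replicate 3 and Mfn1&2-/- replicate 1. The 1163 became 765, 570 and 631 without Mfn2-/- replicates 1, 2 and 3 and 674 without Mfn1&2-/- replicate 2. The 470 became 250, 199 and 168 without WT replicates 2 and 3 and Mfn1-/- replicate 1, and 160, 211 and 228 without Mfn2-/- replicates 2 and 3 and Mfn1&2-/- replicate 2. The plot of both effects shows the genes that held in the quadrants of equal sign and most of the other large changes on the vertical axis.

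**Figure D1:**
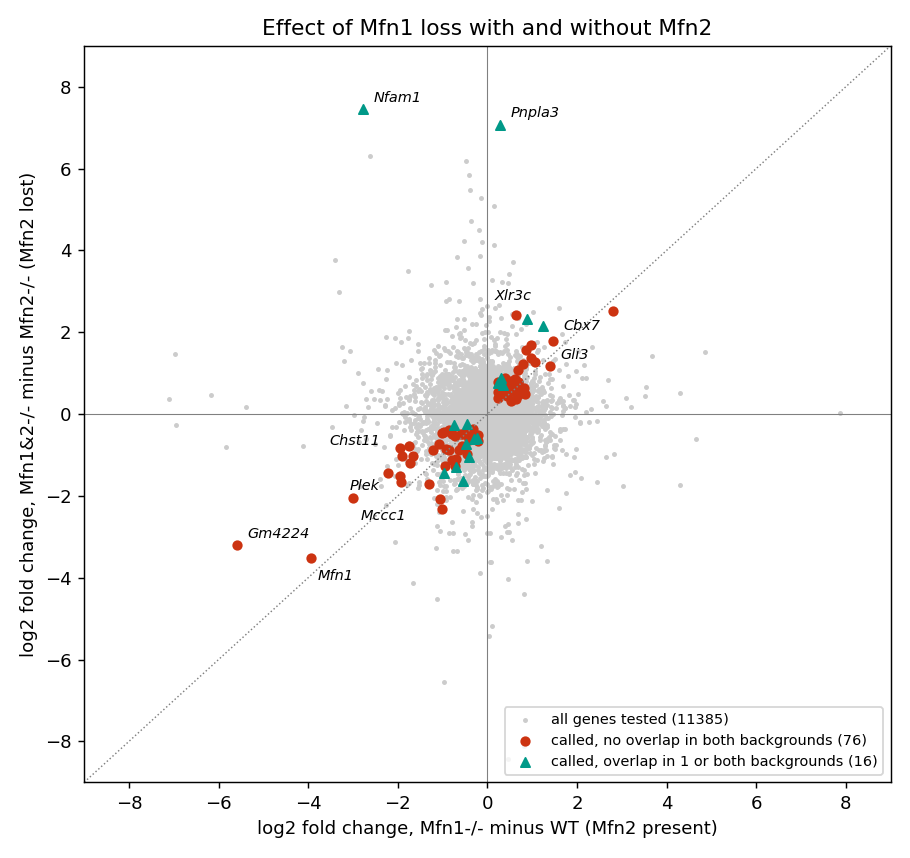
Log2 fold change on loss of Mfn1 where Mfn2 is present (horizontal axis) against that where Mfn2 is lost (vertical axis), 1 point a gene for 11385 genes. Red circles are the 76 called genes whose pools do not overlap in either background, teal triangles the other 16 called genes, and the dotted line marks equal effects. Pnpla3 lies at 7.08 on the vertical axis and far from the line, while Mfn1, Mccc1 and Gli3 lie close to it; fitted values of Nfam1 and Gm4224, which had groups near 0 counts, depend on the fit's prior count.

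These counts depended on single libraries. The covariate fit called 59 and 139 genes when WT replicate 1 or 3 was dropped, 48 when Mfn1-/- replicate 2 was, and 30, 44 and 23 without Mfn2-/- replicates 1, 2 and 3. It called 37 and 26 without Mfn1&2-/- replicates 2 and 3. All 92 genes kept their sign in each of the 12 removals, and 19 kept their call in all 12. Of these, 10 were higher, namely Gli3, Tfap2c, Mitf, Nefh, Ehd3, Add3, Ppp1r9b, Ddx17, Fam184a and 4932438A13Rik. The 9 lower genes were Mfn1, Mccc1, Plek, Chst11, Dppa3, Mrc1, Actl6a, 6030458C11Rik and Gm4224. Each of the 19 also held. The genes that held numbered 120 when WT replicate 3 was dropped, 44 when Mfn1-/- replicate 2 was, and 29, 41 and 22 without Mfn2-/- replicates 1, 2 and 3. They numbered 36 and 25 without Mfn1&2-/- replicates 2 and 3. In the plot of calls without each library, the removals of WT replicate 3, Mfn1&2-/- replicate 1 and Mfn1-/- replicate 1 add the most other genes. DESeq2 called 426 genes, 91 of the 92 among them, and an edgeR fit with 1 mean per group, averaged over both backgrounds, called 501, again with 91 of the 92.

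**Figure D2:**
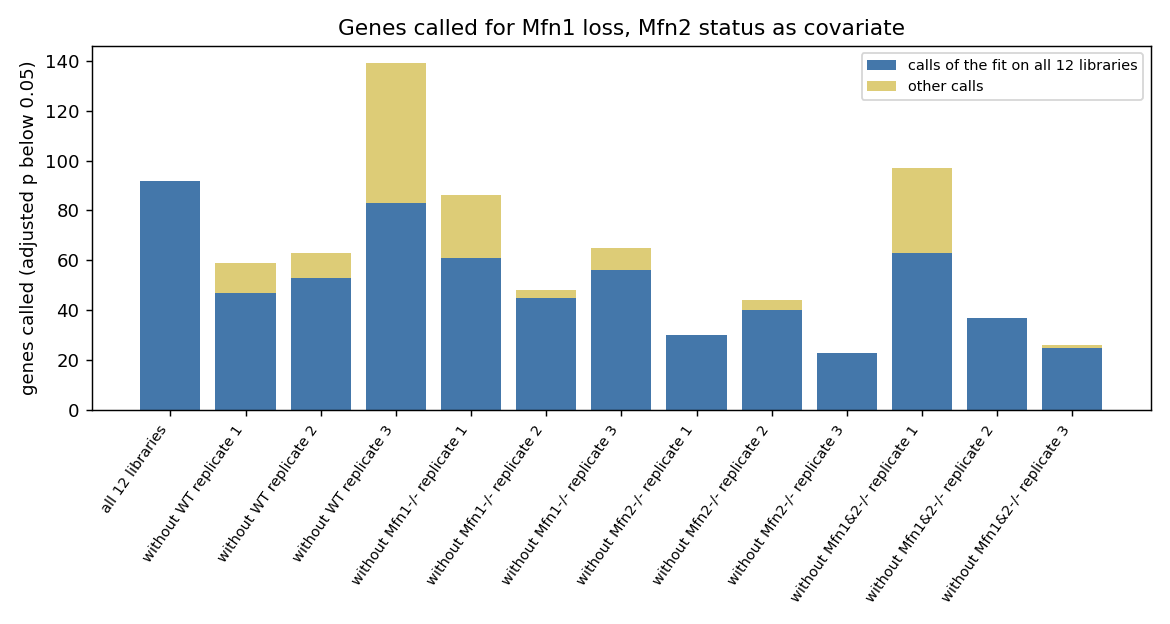
Number of genes called for loss of Mfn1 with Mfn2 status as covariate (vertical axis), for all 12 libraries and with each library left out in turn (horizontal axis). Blue bars are genes also called with all 12 libraries and yellow bars are other genes; the total runs from 23 without Mfn2-/- replicate 3 to 139 without WT replicate 3, against 92 with all.

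Gli3, a zinc-finger transcription factor of the Hedgehog pathway, was the higher gene with the smallest adjusted p. It stood at 193, 92.0 and 119 CPM in WT against 371, 307 and 385 in Mfn1-/-, and at 169.5, 202 and 236 in Mfn2-/- against 357, 545 and 465 in Mfn1&2-/-. No Mfn1-null pool reached down to an intact pool of its background, and the means were 169 CPM with Mfn1 and 405 CPM without it. The log2 fold change was 1.28 ± 0.16 (adjusted p = 0.00274), made of 1.39 ± 0.22 with Mfn2 and 1.17 ± 0.22 without it. Of the 17 Hedgehog genes in the table, Gli3 was the 1 called (5.88%, beside 0.808% of all genes). Their median log2 fold change was 0.226, beside -0.0042 over all genes, and 13 were above 0. In the separate comparisons their median was lower, 0.0567 with Mfn2 and 0.128 without it. At an unadjusted p below 0.05 in the covariate fit, 3 of the 17 passed, all higher, beside 16.7% of all genes. Whether the pathway was more active was not tested. Ptch1, the Hedgehog receptor and a usual target of the pathway, stood at 6.39, 2.78 and 3.34 CPM in WT against 12.8, 6.08 and 9.08 in Mfn1-/-, and at 1.53, 2.99 and 3.61 in Mfn2-/- against 2.69, 4.34 and 7.27 in Mfn1&2-/-. Its log2 fold change of 0.99 ± 0.33 was not called (adjusted p = 0.158), and its pools overlapped in both backgrounds. Gli2, a second factor of the family, had a log2 fold change of 0.25 ± 0.28 (adjusted p = 0.701).

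Tfap2c, a transcription factor of the AP-2 family active in germ cells and the early embryo, stood at 70.4, 87.4 and 83.3 CPM in WT against 141, 138 and 108 in Mfn1-/-, and at 96.3, 89.4 and 73.9 in Mfn2-/- against 152, 126 and 169 in Mfn1&2-/-. All 6 null pools were above all 6 intact pools, and the log2 fold change was 0.73 ± 0.10 (adjusted p = 0.00509). Mitf, a basic helix-loop-helix factor known from pigment cells and lysosome genes, stood at 22.2, 15.3 and 20.7 CPM in WT against 32.6, 35.4 and 34.7 in Mfn1-/-, and at 19.5, 21.5 and 16.9 in Mfn2-/- against 31.5, 29.5 and 29.7 in Mfn1&2-/-. Null pools ran from 29.5 to 35.4 CPM and intact pools from 15.3 to 22.2 CPM, with a log2 fold change of 0.73 ± 0.12 (adjusted p = 0.0129). Nefh, the heavy neurofilament subunit, stood at 42.6, 31.7 and 31.8 CPM in WT against 65.3, 61.5 and 56.9 in Mfn1-/-, and at 23.3, 29.5 and 30.5 in Mfn2-/- against 47.4, 73.9 and 71.8 in Mfn1&2-/-. It changed by 1.00 ± 0.14 (adjusted p = 0.00509), and again no null pool came down to an intact one. Gli3, Tfap2c, Mitf and Nefh kept their calls in every removal of a library.

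Among the genes that kept their call in all 12 removals, several outside the naming rule were picked after their values were seen. Ehd3, a dynamin-like ATPase of endosome recycling, stood at 23.3, 24.1 and 19.5 CPM in WT against 36.0, 38.6 and 32.4 in Mfn1-/-, and at 23.6, 27.5 and 28.6 in Mfn2-/- against 42.7, 47.4 and 46.4 in Mfn1&2-/-, a log2 fold change of 0.73 ± 0.11 (adjusted p = 0.00578). Add3, an adductin that caps actin filaments under the membrane, stood at 144, 140.2 and 134 CPM in WT against 233, 211 and 208 in Mfn1-/-, and at 118, 115 and 138 in Mfn2-/- against 183, 147 and 153 in Mfn1&2-/-. It changed by 0.51 ± 0.08 (adjusted p = 0.0107), and it was called in both backgrounds. Ppp1r9b, a scaffold that holds protein phosphatase 1 on actin, changed by 0.54 ± 0.08, from means of 123 to 178 CPM. Ddx17, an RNA helicase of splicing and microRNA processing, changed by 0.67 ± 0.11, from 54.1 to 86.0 CPM. These were small shifts with little spread between pools.

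The promoters of these genes were searched for letters that AP-2 factors are known to bind, a choice made after Tfap2c had been seen to be higher. Sequences are RefSeq windows on GRCm38.p6 from 250 bases before to 50 bases after an annotated start, which were matched for 9041 of 11385 genes (79.4%). The motif GCCNNNGGC reads the same on both strands. It was in 16.6% of all 32851 windows of the RefSeq table, which also holds windows of genes not tested, in 11 of 39 windows (28.2%) of the higher genes that held, and in 5 of 39 (12.8%) of the lower ones. The share over windows of the tested genes alone was not counted, so the 16.6% is not a like baseline. Windows were matched for 30 of the 34 higher and 36 of the 42 lower genes. Shown, with the motif in capitals, are windows of Ehd3 and Mitf, which were higher, and of Chst11, which was lower; the Mitf window is 1 of 3 that RefSeq lists, and the counts do not say which start oocytes use. The windows lie on the plus strand at chr17:73804591-73804890 for Ehd3, chr6:97929567-97929866 for Mitf and chr10:82985247-82985546 for Chst11.
Ehd3: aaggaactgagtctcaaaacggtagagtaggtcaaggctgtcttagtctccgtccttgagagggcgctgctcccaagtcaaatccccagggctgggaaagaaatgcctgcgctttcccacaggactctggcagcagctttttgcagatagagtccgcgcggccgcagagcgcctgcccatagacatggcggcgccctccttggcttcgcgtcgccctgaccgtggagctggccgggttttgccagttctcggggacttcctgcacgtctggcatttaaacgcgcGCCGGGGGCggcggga
Mitf: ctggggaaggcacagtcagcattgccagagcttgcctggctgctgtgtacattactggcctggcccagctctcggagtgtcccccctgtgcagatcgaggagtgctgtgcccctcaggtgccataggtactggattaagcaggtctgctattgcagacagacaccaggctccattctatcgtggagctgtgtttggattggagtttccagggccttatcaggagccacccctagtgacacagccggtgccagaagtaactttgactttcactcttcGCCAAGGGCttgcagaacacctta
Chst11: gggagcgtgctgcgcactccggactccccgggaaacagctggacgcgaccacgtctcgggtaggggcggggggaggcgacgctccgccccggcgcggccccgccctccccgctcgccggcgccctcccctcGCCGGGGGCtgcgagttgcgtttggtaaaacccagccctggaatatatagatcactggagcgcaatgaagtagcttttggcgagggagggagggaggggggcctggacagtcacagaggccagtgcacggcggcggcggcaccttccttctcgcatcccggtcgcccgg
The motif stood at bases 285 to 293 in Ehd3, 277 to 285 in Mitf and 132 to 140 in Chst11, so it occurred on both sides of the comparison. It was not in the Gli3 window. The GLI motif GACCACCCA and the MITF motif TCACGTGA, searched on both strands, were in 0 of the 39 windows of either direction, beside 0.253% and 0.974% of all windows.

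Further genes rose with loss of Mfn1 and held, with calls that depended on single libraries. Cbx7, a chromodomain subunit of Polycomb repressive complex 1, stood at 10.5, 6.41 and 4.68 CPM in WT against 23.4, 20.9 and 15.3 in Mfn1-/-, and at 1.53, 7.64 and 6.49 in Mfn2-/- against 8.33, 23.6 and 21.7 in Mfn1&2-/-. Its log2 fold change was 1.62 ± 0.34 (adjusted p = 0.0402), with the nearest pools at 7.64 and 8.33 CPM where Mfn2 was lost, and 10 of 12 removals ended the call. Ebf3, a helix-loop-helix transcription factor, stood at 2.08, 1.94 and 1.84 CPM in WT against 5.41, 3.64 and 2.42 in Mfn1-/-, and at 4.00, 6.06 and 2.88 in Mfn2-/- against 9.51, 15.1 and 16.7 in Mfn1&2-/-. The change was 1.35 ± 0.28 (adjusted p = 0.04). Otx1, a homeobox factor of the brain, stood at 10.9, 6.92 and 5.60 CPM in WT against 19.4, 11.6 and 11.9 in Mfn1-/-, and at 11.5, 12.3 and 9.17 in Mfn2-/- against 24.2, 37.1 and 37.1 in Mfn1&2-/-. It changed by 1.23 ± 0.22 (adjusted p = 0.0174), and the call ended without Mfn2-/- replicate 1 (adjusted p = 0.0519), Mfn2-/- replicate 3 (0.0568) or Mfn1&2-/- replicate 3 (0.0502). Ebf3 and Otx1 were both highest in Mfn1&2-/- pools.

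Nes, the intermediate filament protein nestin, stood at 15.3, 10.6 and 9.35 CPM in WT against 28, 24.4 and 21.8 in Mfn1-/-, and at 10.9, 6.48 and 7.50 in Mfn2-/- against 12.8, 19.4 and 28.5 in Mfn1&2-/-. The change was 1.18 ± 0.21 (adjusted p = 0.0172), and only the removal of Mfn2-/- replicate 3 ended the call (adjusted p = 0.0568). Wls, the carrier that takes Wnt proteins to the cell surface, stood at 25.7, 17.4 and 16.5 CPM in WT against 47.8, 32.5 and 36.2 in Mfn1-/-, and at 5.66, 14.1 and 10.3 in Mfn2-/- against 19.7, 24.5 and 32.6 in Mfn1&2-/-. It changed by 1.16 ± 0.21 (adjusted p = 0.0192); the call ended without Mfn2-/- replicate 3 (0.0568) or Mfn1&2-/- replicate 3 (0.0601). The level of Wls was lower in Mfn2-/- than in WT pools, and the null pools stood above their own controls in each background. Tet2, a dioxygenase that oxidises 5-methylcytosine, stood at 23.5, 18.2 and 23.8 CPM in WT against 36.8, 34.5 and 34.6 in Mfn1-/-, and at 17.6, 18.6 and 18.5 in Mfn2-/- against 19.7, 56.7 and 38.8 in Mfn1&2-/-. Its pools came close where Mfn2 was lost, at 18.6 and 19.7 CPM, and the log2 fold change was 0.88 ± 0.19 (adjusted p = 0.0458). Arid3a, a DNA-binding protein of the ARID family, changed by 0.74 ± 0.15 (adjusted p = 0.04). Removals ended the calls of Tet2 in 10, of Ebf3 in 9 and of Arid3a in 8 of 12 cases. Xlr3c, an X-linked gene from a cluster of near-identical copies, stood at 10.9, 10.5 and 10.9 CPM in WT against 13.6, 21.2 and 15.7 in Mfn1-/-, and at 6.92, 11.8 and 7.83 in Mfn2-/- against 54.7, 31.0 and 56.6 in Mfn1&2-/-, and its counts are uncertain because no source used here states how reads shared by copies were treated. Its log2 fold change of 1.54 ± 0.30 (adjusted p = 0.0317) differed between backgrounds.

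On the lower side, the predicted gene Gm4224, outside the naming rule, had the lowest log2 fold change, -3.97 ± 0.70. Its mean was 1.89 CPM in Mfn1-intact pools and 0.127 CPM, under the floor, in Mfn1-null pools. Among the genes named by the rule, Mccc1 fell most after Mfn1 itself. Mccc1 encodes a subunit of methylcrotonyl-CoA carboxylase, a mitochondrial enzyme of leucine breakdown. It stood at 16.5, 10.3 and 12.9 CPM in WT against 0.978, 2.07 and 1.92 in Mfn1-/-, and at 19.6, 11.2 and 9.17 in Mfn2-/- against 1.09, 5.00 and 3.41 in Mfn1&2-/-. The 6 null pools ran from 0.978 to 5.00 CPM and the 6 intact pools from 9.17 to 19.6 CPM, a log2 fold change of -2.51 ± 0.35 (adjusted p = 0.00509). Plek, pleckstrin, a protein kinase C substrate best known from platelets and white blood cells, stood at 9.66, 10.4 and 9.02 CPM in WT against 1.13, 3.07 and 3.33 in Mfn1-/-, and at 13.6, 16.7 and 24.6 in Mfn2-/- against 6.15, 5.85 and 7.27 in Mfn1&2-/-. It fell by 1.72 ± 0.25 on the log2 scale (adjusted p = 0.00513), from higher levels without Mfn2 than with it. Chst11, a sulfotransferase that makes chondroitin 4-sulfate, stood at 26.6, 35.5 and 44.4 CPM in WT against 5.57, 10.3 and 12.3 in Mfn1-/-, and at 52.3, 47.4 and 59.7 in Mfn2-/- against 26.9, 25.2 and 26.9 in Mfn1&2-/-. Its log2 fold change was -1.45 ± 0.21 (adjusted p = 0.00513), made of -1.92 ± 0.25 with Mfn2 and -1.01 ± 0.24 without it; the interaction was not called (adjusted p = 0.141). Mccc1, Plek and Chst11 were called in both backgrounds and in every removal. In Plek and Chst11 the Mfn1&2-/- pools lay nearer to WT than the Mfn1-/- pools did.

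Dppa3, a maternal factor that protects the DNA methylation state of the zygote, fell by less but with little spread. It stood at 309, 304 and 281 CPM in WT against 212, 234 and 236 in Mfn1-/-, and at 328, 333 and 344 in Mfn2-/- against 261, 250.2 and 223 in Mfn1&2-/-. The means were 316 and 236 CPM, a log2 fold change of -0.42 ± 0.06 (adjusted p = 0.00745), and the call stayed in all 12 removals. Mrc1, the mannose receptor, and Actl6a, an actin-like subunit of chromatin remodellers, were picked after their values were seen for the same reason. Mrc1 stood at 53.0, 44.4 and 52.8 CPM in WT against 18.9, 29.3 and 31.3 in Mfn1-/-, and at 48.3, 43.7 and 46.7 in Mfn2-/- against 30.2, 27.8 and 18.5 in Mfn1&2-/-, a log2 fold change of -0.89 ± 0.14 (adjusted p = 0.0107). Actl6a stood at 73.6, 62.1 and 62.1 CPM in WT against 51.1, 43.4 and 33.3 in Mfn1-/-, and at 59.3, 66.1 and 65.5 in Mfn2-/- against 32, 33.5 and 39.1 in Mfn1&2-/-, a change of -0.75 ± 0.11 (adjusted p = 0.00745). The levels of Gli3, Tfap2c, Mitf, Dppa3 and Mrc1 by pool are plotted with those of other genes.

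**Figure D3:**
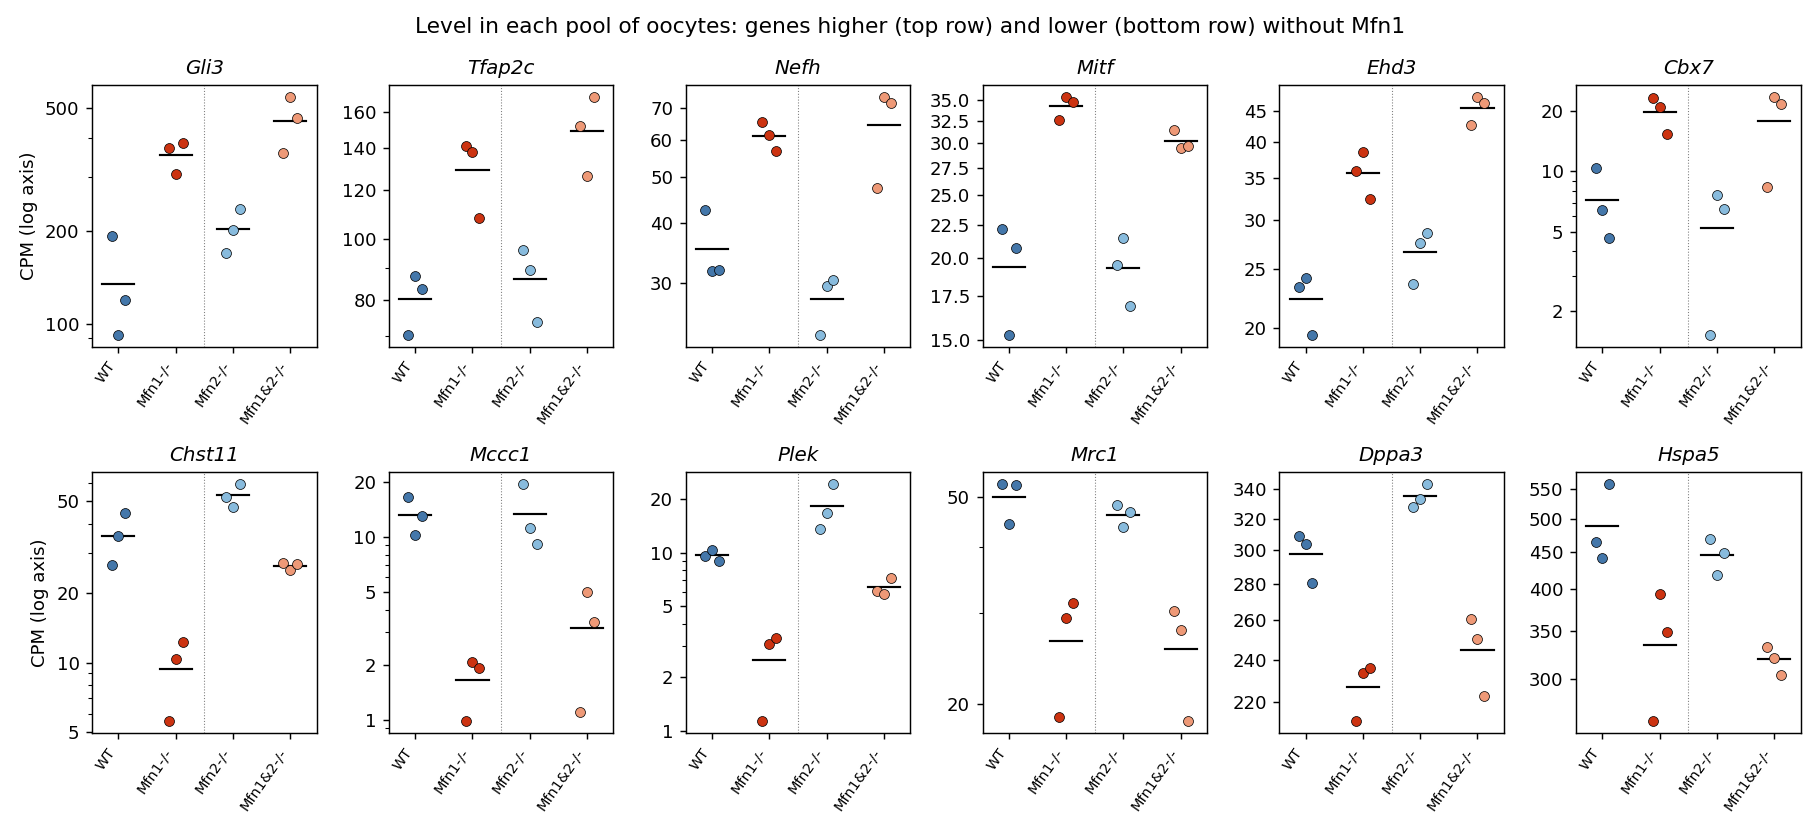
Level of 12 genes in each pool (CPM, log axis), 1 panel a gene, with 1 point a pool and a bar at the mean of the 3 pools of each group; the dotted line parts the groups with Mfn2 from those without it. In each panel both Mfn1-null groups (red and orange) lie on the same side of their controls (dark and light blue), for instance Mitf at 29.5 to 35.4 against 15.3 to 22.2 CPM.

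Other lower genes held with calls that depended on single libraries. Cd200, an immunoglobulin-family ligand, stood at 5.67, 5.99 and 7.10 CPM in WT against 0.301, 0.878 and 2.91 in Mfn1-/-, and at 26.4, 38.8 and 32.5 in Mfn2-/- against 6.57, 12 and 17.2 in Mfn1&2-/-. Its level was several times higher without Mfn2 than with it, and in both states it was lower without Mfn1, by 1.78 ± 0.35 on the log2 scale (adjusted p = 0.0321). Htr7, a serotonin receptor coupled to cyclic AMP, stood at 6.95, 11.2 and 8.52 CPM in WT against 3.84, 5.14 and 4.16 in Mfn1-/-, and at 4.00, 5.23 and 5.15 in Mfn2-/- against 0.758, 1.25 and 0.833 in Mfn1&2-/-. It changed by -1.61 ± 0.30 (adjusted p = 0.0192). Cd160 and Slamf1, receptors known from lymphocytes, changed by -1.10 ± 0.23 and -1.25 ± 0.26. Cd160 pools came close where Mfn2 was present, at 51.4 CPM in WT replicate 3 and 49.6 CPM in Mfn1-/- replicate 3. Cdh17, a cadherin of the gut lining, stood at 11.9, 10.6 and 12.9 CPM in WT against 0.978, 4.39 and 5.83 in Mfn1-/-, and at 20.4, 21.3 and 20.4 in Mfn2-/- against 9.43, 11.6 and 9.54 in Mfn1&2-/-, a change of -1.33 ± 0.29.

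Ank1, the ankyrin that ties membrane proteins to spectrin, changed by -1.53 ± 0.34, and Slc2a9, a urate transporter, by -1.51 ± 0.32. Fgf10, a fibroblast growth factor known from lung and limb buds, stood at 4.95, 8.01 and 7.85 CPM in WT against 1.28, 1.57 and 2.58 in Mfn1-/-, and at 16.5, 9.72 and 11.2 in Mfn2-/- against 5.47, 8.48 and 7.27 in Mfn1&2-/-. It changed by -1.34 ± 0.28 (adjusted p = 0.04). Bbs7, a subunit of the complex that carries membrane proteins to cilia, changed by -1.44 ± 0.32. The adjusted p-values of Cd160, Slamf1, Cdh17, Ank1, Slc2a9 and Bbs7 ran from 0.04 to 0.0487. Of the removals of a library, 4 of 12 ended the call of Htr7, 7 that of Cd200, 9 those of Cd160, Slc2a9 and Fgf10, 10 those of Cdh17, Slamf1 and Bbs7, and 11 that of Ank1. So 7 of the 24 named genes that held kept their call in every removal, and the other 17 kept their direction but not their call.

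Genes near Mfn1 on chromosome 3 were also counted apart from the rest. Of 56 genes within 10 Mb of Mfn1, Mfn1 left out, 5 were called (8.93%), beside 86 of 11328 elsewhere (0.759%). They were Actl6a, 0.127 Mb away, Mccc1 at 3.38 Mb, Bbs7 at 3.99 Mb, the uncharacterised 4932438A13Rik at 4.28 Mb and Spry1 at 5.06 Mb. All but Spry1 held, and 4932438A13Rik was the higher one, at 0.71 ± 0.11 on the log2 scale. Spry1 and Gnb4 are described because of their values, which were seen first. Spry1, an inhibitor of receptor tyrosine kinase signalling, stood at 41.8, 37.9 and 32.9 CPM in WT against 37.5, 22.4 and 25.4 in Mfn1-/-, and at 60.7, 59.5 and 56.8 in Mfn2-/- against 25.1, 34.5 and 25.7 in Mfn1&2-/-. It changed by -0.73 ± 0.16 (adjusted p = 0.0456). The calls of Spry1 and Bbs7 each ended in 10 of 12 removals of a library, while Actl6a, Mccc1 and 4932438A13Rik kept theirs in all 12. Gnb4, a G protein subunit and the next gene on that side, stood at 117, 106 and 119 CPM in WT against 101, 92.2 and 90.9 in Mfn1-/-, and at 104, 106 and 89.8 in Mfn2-/- against 77.6, 74.9 and 73.7 in Mfn1&2-/-. Its change of -0.34 ± 0.08 had an adjusted p of 0.0504 and was not called. The labels do not give the strain of origin of this stretch, and its part in these changes was not tested.

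**Figure D4:**
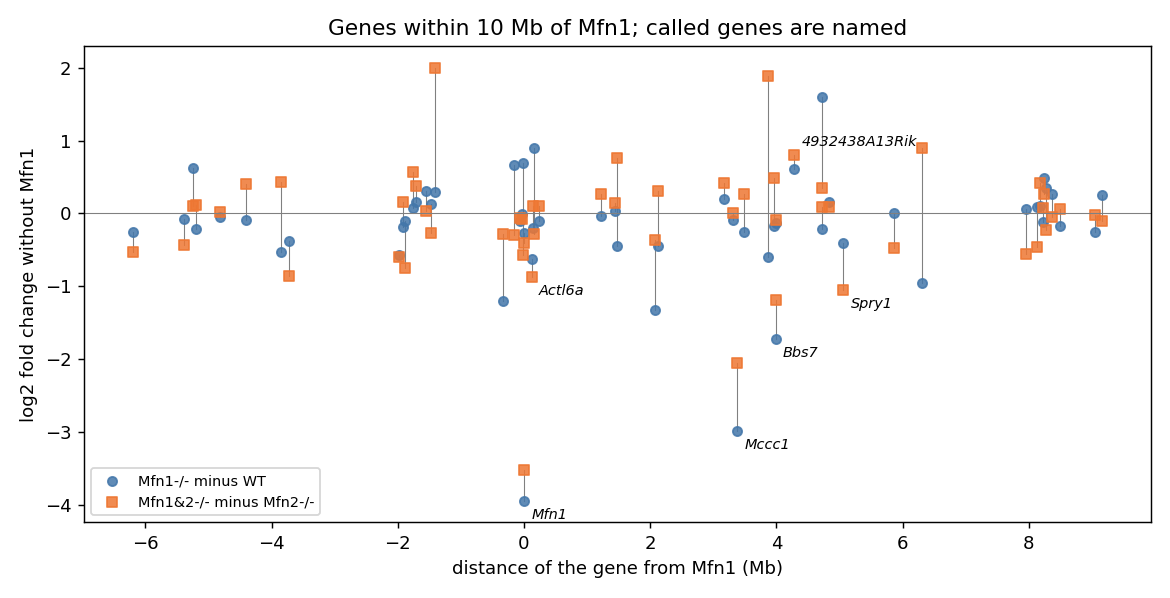
Log2 fold change on loss of Mfn1 (vertical axis) against the distance of each gene's span from that of Mfn1 (horizontal axis, Mb) for Mfn1 and 56 genes within 10 Mb. Circles are Mfn1-/- minus WT, squares Mfn1&2-/- minus Mfn2-/-, joined by a line for each gene; called genes are named, and Mccc1 at 3.38 Mb is the lowest after Mfn1.

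Of the ER unfolded protein response, 2 of 29 genes in the table were called (6.9%, beside 0.808% of all genes), both lower. At an unadjusted p below 0.05, 6 of the 29 passed, 1 higher and 5 lower, beside 16.7% of all genes. Hspa5, the main Hsp70 chaperone of the ER lumen, also called BiP, stood at 464, 441 and 561 CPM in WT against 262, 394 and 348 in Mfn1-/-, and at 469.6, 418 and 449 in Mfn2-/- against 332, 321 and 304 in Mfn1&2-/-. All 6 null pools, at 262 to 394 CPM, were below all 6 intact pools, at 418 to 561 CPM. The log2 fold change was -0.51 ± 0.09 (adjusted p = 0.0183), made of -0.55 ± 0.13 with Mfn2 and -0.48 ± 0.13 without it. Pdia3, an ER enzyme that pairs disulfide bonds in glycoproteins, stood at 296, 300.1 and 303 CPM in WT against 229, 247 and 249.5 in Mfn1-/-, and at 349, 330.3 and 306 in Mfn2-/- against 254, 261 and 253 in Mfn1&2-/-. Null pools lay at 229 to 261 CPM and intact pools at 296 to 349 CPM, a change of -0.34 ± 0.06 (adjusted p = 0.0174). The call of Hspa5 ended without Mfn2-/- replicate 1 (adjusted p = 0.0519), Mfn2-/- replicate 3 (0.0568) or Mfn1&2-/- replicate 3 (0.0595), and that of Pdia3 without Mfn2-/- replicate 1 (0.0519) or Mfn1&2-/- replicate 3 (0.0502).

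The median log2 fold change of the list was -0.0582, beside -0.0042 over all genes, with 11 above 0 and 18 below. Eif2ak3, the ER kinase PERK, stood at 33.6, 35.9 and 36.2 CPM in WT against 49.5, 46.1 and 40.8 in Mfn1-/-, and at 114, 71.8 and 89.0 in Mfn2-/- against 148, 119 and 175 in Mfn1&2-/-. Its change of 0.53 ± 0.12 was upward and not called (adjusted p = 0.0595), although its pools did not overlap in either background. Dnajc3, a cochaperone of the ER lumen, had -0.30 ± 0.08 (adjusted p = 0.079), and Sel1l, of the ER degradation complex, had -0.21 ± 0.07 (adjusted p = 0.124). In the integrated stress response list none of 22 genes was called, beside 0.808% of all genes. An unadjusted p below 0.05 was found for 2 of the 22, beside 16.7% of all genes. Its member with the smallest p was Slc7a11, the cystine importer, at -0.38 ± 0.09 (adjusted p = 0.0558).

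Both ER chaperone promoters are shown because the genes fell together, with the ER stress response element in capitals where the search found it. The element, CCAAT and CCACG with 9 bases between them, was searched on both strands. Of all windows of the RefSeq table, which also holds windows of genes not tested, 0.119% held it. Among genes that held, it was in 1 of 39 windows of the higher genes, that of Xlr3c, and in 1 of 39 of the lower ones, that of Hspa5. In the ER list, 23 of the 29 genes (79.3%) had a window, and the element was in 9 of 24 windows (37.5%). These belonged to Calr, Canx, Creld2, Derl3, Dnajc3, Hsp90b1, Hspa5, Pdia6 and Syvn1, of which only Hspa5 was called, beside 0.808% of all genes. The windows are on the plus strand, chr2:34771840-34772139 for Hspa5 and chr2:121413652-121413951 for Pdia3.
Hspa5: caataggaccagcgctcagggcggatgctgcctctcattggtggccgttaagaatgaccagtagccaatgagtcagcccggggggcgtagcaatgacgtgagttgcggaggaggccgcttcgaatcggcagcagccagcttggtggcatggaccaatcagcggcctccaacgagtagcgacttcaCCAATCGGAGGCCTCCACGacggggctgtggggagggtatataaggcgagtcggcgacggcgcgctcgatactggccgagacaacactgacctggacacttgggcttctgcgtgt
Pdia3: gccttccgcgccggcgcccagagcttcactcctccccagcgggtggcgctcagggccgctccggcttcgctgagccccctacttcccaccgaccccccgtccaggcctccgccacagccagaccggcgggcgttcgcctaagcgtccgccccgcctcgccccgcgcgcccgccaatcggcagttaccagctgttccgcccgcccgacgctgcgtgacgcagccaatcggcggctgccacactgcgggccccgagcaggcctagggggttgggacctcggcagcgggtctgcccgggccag
Only exact matches were searched. The Hspa5 window held 1 match at bases 186 to 204. The Pdia3 window held no exact match, though its stretch ccaatcggcggctgccaca differs from the element by 1 base.

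Other genes of the mitochondrion were read against the 0.808% called over all genes, at which lists of this length hold 0 or 1 call, so their counts do not set them apart. Apart from Mfn1, none of the other 22 fusion and fission genes was called: Opa1, the inner membrane fusion GTPase, had a log2 fold change of -0.11 ± 0.07 (adjusted p = 0.475), and Mff, a fission adaptor, stood at 140.1, 175 and 142 CPM in WT against 109.9, 128 and 140.1 in Mfn1-/-, and at 134, 155 and 136 in Mfn2-/- against 110.4, 103 and 102 in Mfn1&2-/-. The change of Mff, -0.35 ± 0.09, was not called (adjusted p = 0.0699), and the nearest pools where Mfn2 was present both stood at 140.1 CPM. None of 75 nuclear genes of oxidative phosphorylation was called, with a median of -0.0183, nor was any of 24 mitochondrial chaperones and proteases, with a median of -0.0789. Of 23 genes that maintain and express mitochondrial DNA none was called, the median was -0.134 and 17 lay below 0. Their smallest p belonged to Peo1, the Twinkle helicase, at -0.63 ± 0.16 (adjusted p = 0.083). Counts of 0 in these lists rest on the edgeR test; at an unadjusted p below 0.05, 4 OXPHOS genes were higher and 7 lower, 1 chaperone or protease gene was higher, and 1 mtDNA gene was higher and 5 lower, beside 16.7% of all genes.

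The other lists held 0 or 1 call each, beside 0.808% of all genes. Among oocyte lists, Dppa3 was the 1 of 32 growth factor, zona and transcription factor genes to be called, and Fbxo5, also known as Emi1, an inhibitor of the anaphase-promoting complex, was the 1 of 40 meiotic maturation genes. Fbxo5 stood at 110.1, 106 and 104 CPM in WT against 76.6, 94.0 and 73.8 in Mfn1-/-, and at 147, 128 and 131 in Mfn2-/- against 116, 81.0 and 81.3 in Mfn1&2-/-. It fell by 0.47 ± 0.10 on the log2 scale (adjusted p = 0.0458), held in both backgrounds and lost its call in 9 of 12 removals. The medians of both lists were -0.0256 and -0.0127. No gene was called among 29 of adhesion and contact with granulosa cells, 31 of Kit, PI3K, Foxo3 and mTOR signalling, 36 of mRNA storage and decay, 40 of autophagy, 28 of the antioxidant response, 17 of glycolysis, 77 cytosolic ribosomal proteins, 19 of intrinsic apoptosis or 23 of sphingolipid metabolism. At an unadjusted p below 0.05, 16.7% of all genes passed. In these lists it was 6 of 17 glycolysis, 9 of 28 antioxidant and 7 of 23 sphingolipid genes. It was 15 of 77 ribosomal protein, 7 of 36 mRNA storage and decay and 7 of 40 autophagy genes. The remaining counts were 3 of 29 adhesion, 2 of 31 Kit, PI3K, Foxo3 and mTOR and 1 of 19 apoptosis genes. The medians of these lists ran from -0.0985 for sphingolipid metabolism to 0.129 for apoptosis. In all, 6 list genes were called with Mfn2 as covariate, 3 to 8 when a library was left out, 24 by DESeq2 and 31 in the fit with 1 mean per group averaged over both backgrounds. The plot of list members shows the called genes against the spread of each list.

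**Figure D5:**
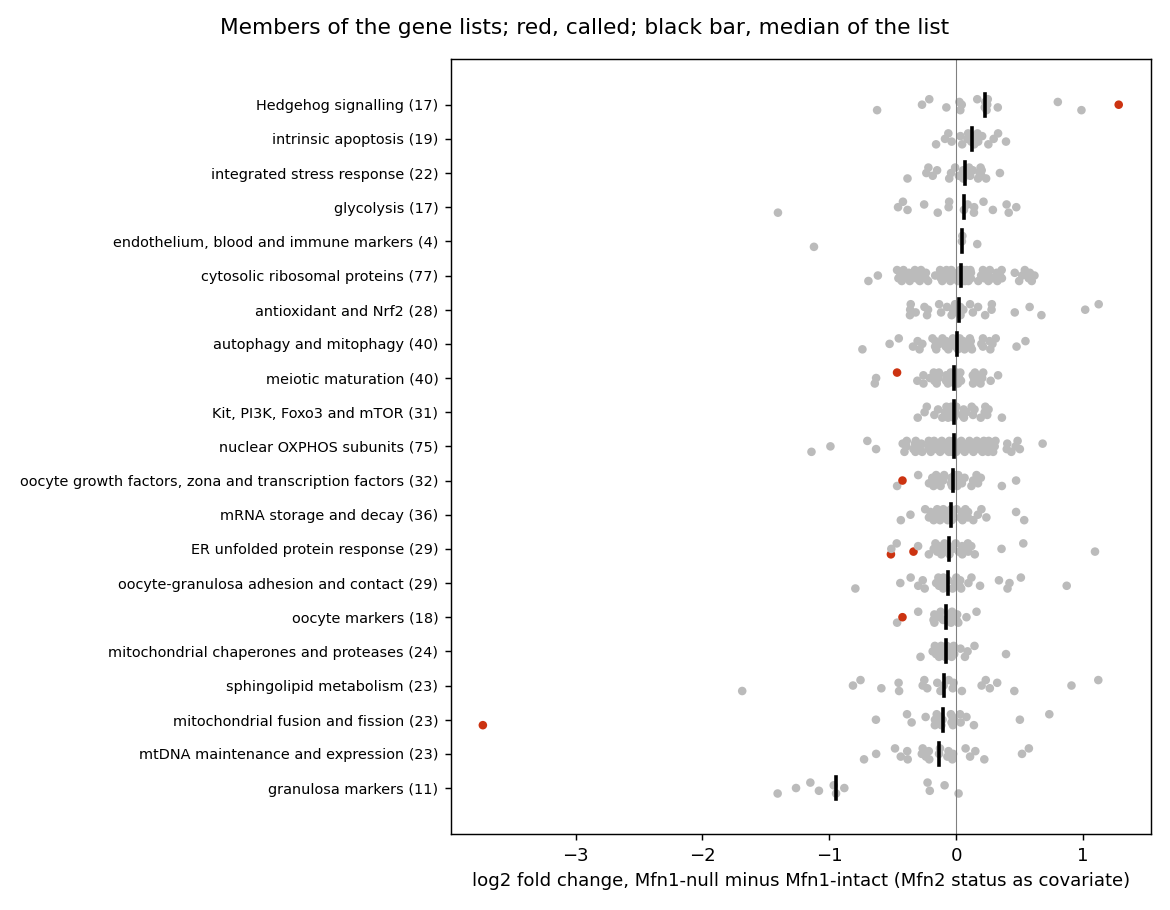
Log2 fold change on loss of Mfn1 with Mfn2 status as covariate (horizontal axis) for the members of 21 gene lists (vertical axis, number of members in brackets). Each point is a gene, red where called, and the black bar is the median of the list; all medians lie between -0.134 and 0.226 except that of the granulosa markers at -0.947, which was -0.151 without WT replicate 3.

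Not every call was shared by both backgrounds. For 2 of the 92 (2.17%), Pnpla3 and Xlr3c, the interaction was called as well, beside 4.13% of all genes. The covariate fit favours genes that move alike in both backgrounds, so this share describes the calls only. Pnpla3, a lipase of lipid droplets, stood at 0.559, 0.422 and 1.59 CPM in WT against 1.5, 1.07 and 0.500 in Mfn1-/-, and at 2.13, 0.415 and 2.01 in Mfn2-/- against 190.3, 300.4 and 148 in Mfn1&2-/-. It was high in the Mfn1&2-/- pools only, and its log2 fold change was 5.68 ± 0.98 with the covariate (adjusted p = 0.0171) but 0.28 ± 0.63 with Mfn2 and 7.08 ± 0.43 without it. Nfam1, an immunoreceptor signalling protein, was at 0 to 0.249 CPM in the 9 other pools, at or under the floor, and at 8.76, 28.1 and 19.0 CPM in Mfn1&2-/-. Genes outside the 92 also had called interactions, and those named here were chosen for a small p of that test. Cdc5l, a splicing factor, stood at 1.92, 3.12 and 5.68 CPM in WT against 3.46, 1.5 and 3.16 in Mfn1-/-, and at 6.46, 3.24 and 5.49 in Mfn2-/- against 336, 272 and 270.1 in Mfn1&2-/-. Its covariate log2 fold change of 3.45 ± 1.00 was not called (adjusted p = 0.11), and the interaction was 6.25 ± 0.48 (adjusted p = 8.66e-06). Umodl1, a uromodulin-like protein, and Rpl37, of the large ribosomal subunit, had interactions of 1.68 ± 0.16 and 1.72 ± 0.18. In Umodl1 the effect of Mfn1 loss was -0.35 ± 0.11 with Mfn2 and 1.32 ± 0.11 without it.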

How the data were processed

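Per the labels' protocols, total RNA was extracted with a PicoPure kit, ribosomal RNA was depleted, and libraries from a stranded low-input kit were sequenced as 100 bp paired-end reads. Tools named in the submitters' processing notes are STAR 2.7.0a, FastQC 0.11.7 and edgeR, with the mm10 build; no source used here gives the counter, annotation, strand setting or treatment of multi-gene reads. The authors deposited unnormalized counts for 11385 genes, which were used as they stand. The deposited CPM table was not used. Of the symbols, 99.2% were located in GENCODE vM21.

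Groups were taken from the labels; 1 pool with the genotype "Mn2-/-" was placed in Mfn2-/- by its description. edgeR 4.0.16 (R 4.3.3; TMM, quasi-likelihood) was fitted to all genes with Mfn1 and Mfn2 status (9 residual degrees of freedom), and with 1 mean per group (8) for the separate comparisons and the interaction. filterByExpr removed 0 genes. Adjusted p-values are Benjamini-Hochberg values over all genes. Standard errors are the size of the log2 fold change over the square root of F. The fit was tested on simulated data.

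The genes and 22 lists (619 entries in the table) were chosen with earlier results of these data known. Named are Mfn1, Mfn2, the 12 largest changes in each direction among called genes that held with a mean of at least 5 CPM, up to 3 genes a list, and 3 interaction genes; predicted gene names were left out of this rule, and 3 of them (4932438A13Rik, 6030458C11Rik and Gm4224) and other genes said to be chosen later were named after their values were seen. Alternatives were other scaling (RLE, library size), DESeq2 1.42.0, limma-voom (limma 3.58.1), filters, a replicate block, no covariate, glmTreat with a 1.5-fold threshold, and the removal of each library.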

Additional observations from a re-analysis of the deposited data

Results flagged for a closer look

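Named genes whose response to loss of Mfn1 differed with Mfn2 status by the interaction test of edgeR's quasi-likelihood fit (adjusted p below 0.05) are given here as values. Over all genes that interaction was called for 4.13%. Cdc5l, Umodl1 and Rpl37 had been named for a small p of this same test, so their being flagged was fixed in advance. Pnpla3 lies outside the naming rule and was added by choice. The interaction is the log2 fold change where Mfn2 is lost minus that where it is present. It was 6.25 for Cdc5l, a splicing factor, and 6.80 for Pnpla3, a lipase of lipid droplets; both were high in the 3 Mfn1&2-/- pools and low in the other 9. Xlr3c, of a multicopy X-linked family, had an interaction of 1.78, with a log2 fold change of 0.65 ± 0.26 with Mfn2 and 2.43 ± 0.27 without it. Umodl1 had 1.68, Rpl37 had 1.72 and Rpl11, like Rpl37 a protein of the large ribosomal subunit, had 1.15. Zar1l, a maternal RNA-binding factor, had 0.972, and Csnk1a1, a casein kinase of Wnt and Hedgehog signalling, had 0.526. Differences of the opposite sign were found for Ldhb, a lactate dehydrogenase subunit, at -0.591, and for Ocln, the tight junction protein occludin, at -1.01. Ocln changed by 1.02 ± 0.17 with Mfn2 and by 0.0048 ± 0.17 without it. Their adjusted p-values ran from 8.66e-06 for Cdc5l to 0.0400 for Zar1l.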

How the results depend on the processing

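The covariate count of 92 became 426 with DESeq2, 139 with limma-voom, 501 with 1 mean per group averaged over both backgrounds, 13 without the covariate and 1 (Mfn1) with a 1.5-fold threshold in glmTreat. The 76 genes that held became 219 with DESeq2, 189 with averaged group means and 13 without the covariate. Where Mfn2 is present, 26 calls became 224 with DESeq2 and 13 with only the 6 libraries compared; the interaction count of 470 became 903 with DESeq2. The cause of these shifts was not tested. With each library left out in turn, the counts ran from 23 to 139 (covariate), 3 to 51 (Mfn2 present), 570 to 1302 (Mfn2 lost), 160 to 464 (interaction) and 22 to 120 (held), and Mfn1 ran from -3.86 to -3.67. RLE scaling gave 102 covariate calls, library size alone 101, no filter 92 and a filter at 5 CPM 116. Of 1826 single-gene values under alternatives, 2 changed sign: Hsd3b1 at 0.0505 without WT replicate 3 (range over removals -1.10 to 0.0505) and Tek at -0.0497 without Mfn1&2-/- replicate 1 (-0.0497 to 0.0953), neither called. Lists were also counted in each alternative, a choice made after the data were seen.

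Groups share replicate numbers, but the labels do not say what a number pairs. Of 18 pairs of libraries with the same number, 4 had deviations correlated above 0.1 (highest 0.179, median -0.013), where pairs of unlike number reached 0.183 (median -0.00086), and 7 of 12 libraries correlated best with their own number. A fit with the replicate block called 33 genes with the covariate, 276 in the interaction and 29 that held; 11 of the 24 named genes that held were called in it.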

Other observations

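Members of multicopy oocyte gene families were among the 92 genes called with Mfn2 status as covariate; they were picked after their values were seen. Tcl1b4, of a family expressed in oocytes and early embryos, stood at 30.7, 38.6 and 37.0 CPM in WT against 48.8, 40.8 and 50.5 in Mfn1-/-, and at 34.4, 25.5 and 37.5 in Mfn2-/- against 56.1, 61.1 and 62.1 in Mfn1&2-/-. It held, with a log2 fold change of 0.64 ± 0.13. Its neighbour Tcl1b5 was called at 1.69 ± 0.33 but did not hold, since Mfn1-/- replicate 1 stood at 6.17 CPM, below all 3 WT pools. Tcl1b2 was called at 0.60 ± 0.12 and did not hold either. Oog2 and Oog3, of a family of oogenesins, held in the other direction, at -0.46 ± 0.09 and -0.49 ± 0.10. Leaving out 1 library ended the calls of Tcl1b4, Tcl1b5 and Oog2 in 7 of 12 cases and those of Tcl1b2 and Oog3 in 8. No source used here says how reads shared by near-identical copies were counted, which leaves these values uncertain.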
